A study of Mus musculus with 53 samples.

Results

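The interferon regulatory factors (IRFs) are a family of transcription factors that share an N-terminal DNA-binding domain recognising a repeated GAAA core in the promoters of interferon genes and interferon-stimulated genes. The 8 members described here are Irf1, Irf2, Irf3, Irf4, Irf5, Irf7, Irf8 and Irf9, chosen by name as the rows of the deposited expression tables that carry these symbols. They are 8 of the 23847 loci in the files, and all 8 were among the 11146 loci that reached 1 FPKM in at least 1 sample and were tested. FPKM counts fragments relative to transcript length and to all mapped fragments of the library, so levels of different genes can be set side by side.

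The samples were bone marrow-derived macrophages (BMDMs), grown from mouse bone marrow for 6 days with supernatant of L929 cells, a source of the macrophage growth factor M-CSF. Wild-type (WT) and Stat6-/- C57BL/6 animals of 8 to 12 weeks were used, and the knockout was full-body, so it was present throughout development and in every cell of the culture. BMDMs of each genotype received 20 ng/ml IL-4 for 1, 3, 6 or 24 h, or were kept as controls for the same times and at 0 h. Each of the 9 WT groups had 4 samples, except 24 h of IL-4, for which replicates 2, 3 and 4 were analysed, and each of the 9 Stat6-/- groups had 2. The study describes the WT samples as 4 individual animals. The labels do not say that a replicate number marks the same animal at every time.

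Signal transducer and activator of transcription 6 (STAT6) is the transcription factor that the IL-4 receptor activates through Janus kinases. IRF4 and IRF8 are found mainly in immune cells and bind DNA mainly with partners such as PU.1 and BATF. IRF4 is known as a factor of alternative, IL-4-driven macrophage polarization. IRF1 activates and IRF2 mostly represses from the same elements. IRF3, IRF5 and IRF7 are activated by phosphorylation after nucleic acid sensing, and IRF9 is the DNA-binding subunit of the ISGF3 complex, which forms after type I interferon.

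Stat6 transcripts lay between 58.7 and 90.6 FPKM in the 35 WT samples and between 14.3 and 24.0 FPKM in the 18 Stat6-/- samples, with no overlap, so transcript counted to the locus remained in the knockout. All 7 macrophage markers were present, with a summed level between 2621 and 4892 FPKM over all samples; it ran from 3341 to 4362 FPKM in WT controls and from 2621 to 3674 FPKM in WT with IL-4. Of 5 B cell markers 1 had a median of at least 1 FPKM, Cd79b at 5.38, while Pax5 had a median of 0, and of 5 T cell markers 1 did, Cd4 at 5.61, while Cd3e had a median of 0. Of 5 plasmacytoid dendritic cell markers 2 reached that level, Bst2 at 487 FPKM, which is itself an interferon-stimulated gene, and Tcf4 at 10.8 FPKM, while Siglech had a median of 0.342 FPKM. Of 6 conventional dendritic cell markers 0 did, and Flt3 and Zbtb46 stayed under 1 FPKM. Of 6 neutrophil markers 5 were measured, and all 5 had a median of at least 1 FPKM. S100a8 and S100a9 were highest, at medians of 190 and 215 FPKM, with Camp at 13.8, Mpo at 7.65 and Elane at 5.26 FPKM. These markers summed to between 269 and 550.2 FPKM in WT controls and between 514 and 963 FPKM in Stat6-/- controls. Their part in the results was not tested. Sample depth relative to 1 WT control, estimated from the step between low FPKM values, ran from 0.707 to 1.55. In bulk samples such as these, a lower level can come from fewer cells of a type or from less RNA per cell, and the 2 cannot be told apart.

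The 300-base promoter windows of the RefSeq table (GRCm38.p6, 250 bases before to 50 bases after a gene's start) were searched on both strands for 3 motifs. These were a STAT6-type site, TTCNNNNGAA, a shorter STAT site of the GAS type, TTCNNNGAA, and an IRF element, GAAANNGAAA. All 8 members had a window, and Irf1, Irf8 and Irf9 had 2 each. A member was counted if any of its windows held a match, while the percentages below count single windows. The units of the 2 figures therefore differ. The GAS-type letters were found in 3 of 8 members, Irf1, Irf2 and Irf8, against 8.3% of all 32851 windows. The IRF element was found in 1 member, Irf2, against 3.44% of windows, and no matches overlapped. The stretches with these matches, in 3 of the genes that changed with IL-4, are shown with the motif letters in capitals. All are on the + strand. Irf9 also changed with IL-4, and only the letters of its match are given below.

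Irf1, chr11:53769909-53769947, GAS-type site: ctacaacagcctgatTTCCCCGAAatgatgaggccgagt
Irf2, chr8:46739495-46739544, IRF element, then GAS-type site: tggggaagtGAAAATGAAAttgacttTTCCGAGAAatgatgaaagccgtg
Irf8, chr8:120736172-120736228, 2 GAS-type sites: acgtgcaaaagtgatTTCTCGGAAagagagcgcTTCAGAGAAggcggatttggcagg

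The STAT6-type letters were found in 1 of 8 members, Irf9, as TTCCTGGGAA, beginning 1 base after the first transcribed base, against 6.95% of all windows. No match to any of the 3 motifs lay in the windows of Irf3, Irf4, Irf5 or Irf7. A match is only a description of the sequence, and the absence of one covers only this window.

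In untreated WT BMDMs the members spanned a wide range of levels. Over the 20 WT controls the median was 263 FPKM for Irf7, 144 FPKM for Irf5, 73.2 FPKM for Irf8, 49.6 FPKM for Irf1, 45.1 FPKM for Irf9, 44.5 FPKM for Irf2, 16.9 FPKM for Irf3 and 0.916 FPKM for Irf4. The ranges of the neighbours Irf7 and Irf5 overlapped, since Irf7 ran from 107 to 706 FPKM and Irf5 from 124 to 161 FPKM. Irf1, Irf9 and Irf2 also overlapped one another, between 34.6 and 62.8 FPKM in all. Irf8 stood clear of its neighbours, Irf3 lay below the lowest Irf2 value, and Irf4 lay below every other member in every WT control. In the 10 Stat6-/- controls Irf2 (median 50.6 FPKM) and Irf9 (median 47.2 FPKM) changed places, with overlapping ranges, and the rest of the order of medians was that of WT. Irf7 came first there through replicate 2, with a median of 1008 FPKM against 171 FPKM for Irf5, since in replicate 1 its median was 130 FPKM, below the 152 FPKM of Irf5.

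**Figure D1:**
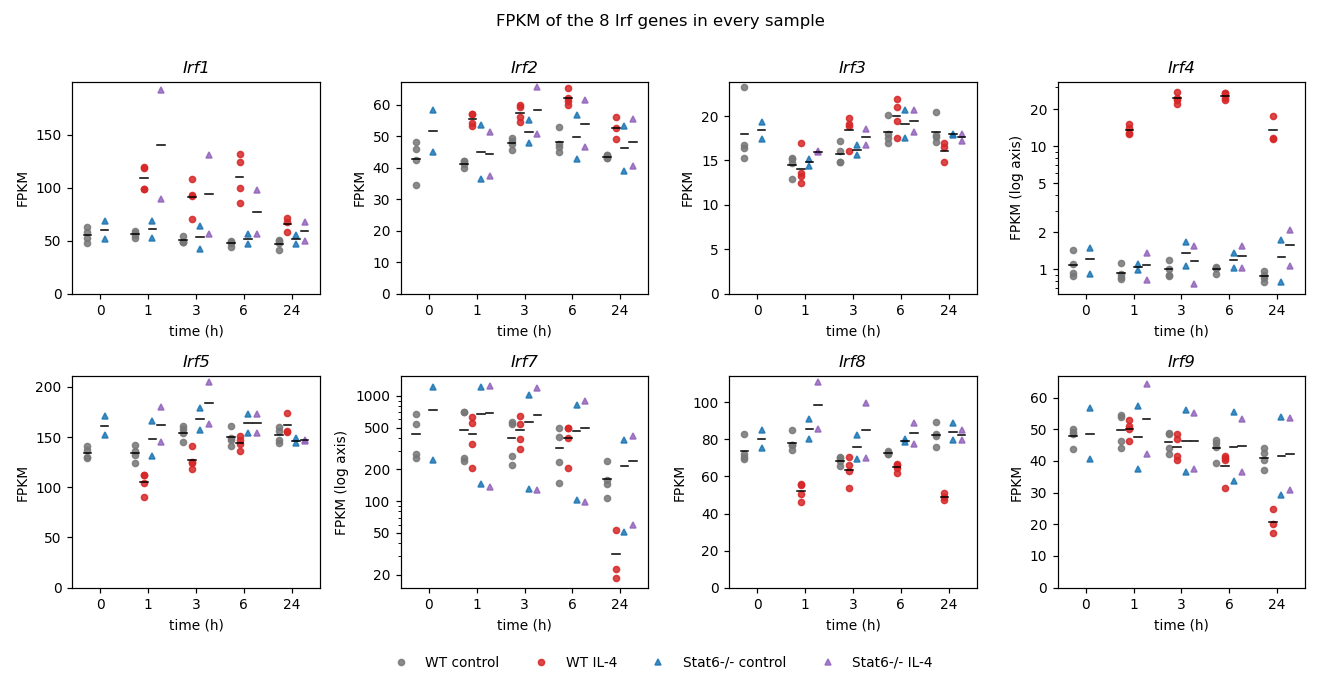
Points are FPKM values of single samples against time in hours for the 8 Irf genes, and black bars are group means; grey circles are WT controls, red circles WT with IL-4, blue triangles Stat6-/- controls and purple triangles Stat6-/- with IL-4. Irf4 and Irf7 have log axes and the other panels start at 0; WT IL-4 samples stand far above all others for Irf4 from 1 h on, and lie below the WT controls for Irf7, Irf8 and Irf9 at 24 h.

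In WT BMDMs IL-4 moved members in both directions. With limma on log2(FPKM + 1) and Benjamini-Hochberg adjustment over the 11146 loci, 5 of 8 members passed the test (adjusted p under 0.05) at 1 h, and 3, 3 and 4 did so at the later times. Over all loci 9.39%, 28.9%, 41.2% and 55% passed at these times. Called members, those that passed with at least a 2-fold change, numbered 1, 1, 2 and 2, against 1.49%, 3.88%, 5.54% and 8.5% of all loci. Irf4 was called at all 4 times, Irf1 at 6 h and Irf7 at 24 h. When replicate number within each genotype was fitted as a block, 5, 5, 5 and 6 members passed, against 17.1%, 41.1%, 55.2% and 66.2% of loci.

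Irf4 (chr13:30749258-30766927, mm10) had the largest rise of the 8 members. In WT controls it lay near 1 FPKM, between 0.781 and 1.43 in all 20 samples. After 1 h of IL-4 the WT samples had 12.9, 12.5, 15.2 and 14.0 FPKM, and after 3 h they had 23.9, 22.2, 24.6 and 27.7 FPKM. After 6 h they had 24.4, 23.8, 26.8 and 26.9 FPKM, and after 24 h replicates 2 to 4 had 17.7, 11.5 and 11.6 FPKM. Every IL-4 sample was above every control at each time, and the 24 h values lay near those at 1 h. The ratio of mean FPKM rose from 14.6 after 1 h to 24.6 after 3 h and 25.4 after 6 h, and was 15.6 after 24 h. On the log2(FPKM + 1) scale, which compresses the change of a gene this low in controls, the rise was 2.92 ± 0.13 (SE), 3.68 ± 0.13, 3.72 ± 0.13 and 2.94 ± 0.14 in order of time, with adjusted p (limma) of 4.13e-20, 1.06e-23, 4.51e-24 and 2.05e-19.

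In Stat6-/- BMDMs Irf4 stayed low. Controls at 1 h had 1.11 and 0.979 FPKM and IL-4 samples 1.35 and 0.821 FPKM. At 6 h controls had 1.36 and 1.02 FPKM and IL-4 samples 1.54 and 1.02 FPKM. At 24 h controls had 0.792 and 1.72 FPKM and IL-4 samples 1.07 and 2.07 FPKM. Controls and IL-4 samples overlapped at all 4 times, and the replicate with the higher value was not the same at every time. The WT change exceeded the Stat6-/- change by 2.90 ± 0.23 (SE), 3.82 ± 0.23, 3.67 ± 0.23 and 2.75 ± 0.24 on the log2 scale, in order of time. The adjusted p of this genotype difference (limma) was 4.89e-12, 7.33e-16, 1.32e-15 and 1.47e-11.

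Irf8 (chr8:120736376-120756692), a factor of the monocyte and macrophage lineage, moved the other way from its closest relative Irf4. At 1 h the WT controls had 84.9, 76.8, 76.9 and 74.5 FPKM and the IL-4 samples 55.8, 50.6, 55.5 and 46.3 FPKM. At 24 h the controls had 89.4, 75.9, 83.0 and 82.0 FPKM and the IL-4 samples, replicates 2 to 4, had 48.9, 47.1 and 51.2 FPKM. The groups did not overlap at either time. Irf8 fell by 0.58 on the log2 scale at 1 h (SE 0.09, adjusted p = 3.19e-06) and fell by 0.74 at 24 h (SE 0.09, adjusted p = 2.9e-08). Between these times the gap was smaller, and neither the log2 difference of -0.12 at 3 h (adjusted p = 0.344) nor that of -0.16 at 6 h (adjusted p = 0.142) passed. All 4 WT samples at 6 h of IL-4, at 61.7 to 66.6 FPKM, were still below the 4 controls at 71.9 to 73.8 FPKM, and with the replicate block the 6 h value passed (adjusted p = 0.0289).

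Irf8 did not fall in Stat6-/- BMDMs. Controls at 1 h had 80.3 and 91.3 FPKM and IL-4 samples 85.9 and 111 FPKM, and at 24 h controls had 79.7 and 88.8 FPKM and IL-4 samples 79.5 and 85.1 FPKM. The groups overlapped at both times. The WT response was lower than the Stat6-/- response by a log2 difference of -0.77 ± 0.15 (SE) at 1 h and -0.71 ± 0.16 at 24 h, with adjusted p (limma) of 0.000786 and 0.000695. The genotype differences at 3 h, -0.26, and at 6 h, -0.23, did not pass.

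Irf1 (chr11:53770014-53778374), an activator of interferon-response and inflammatory genes, was higher with IL-4 in WT at every time. At 1 h the controls had 57.0, 52.5, 55.0 and 59.4 FPKM and the IL-4 samples 118, 98.9, 120.0 and 99.2 FPKM. At 6 h the controls had 43.6, 48.2, 49.2 and 49.8 FPKM and the IL-4 samples 99.4, 85.5, 124 and 132 FPKM. No IL-4 sample overlapped the controls at either time, although the IL-4 samples were spread more widely than the controls. Irf1 rose by 0.95 on the log2 scale at 1 h (SE 0.20, adjusted p = 0.000552), by 0.83 at 3 h (SE 0.20, adjusted p = 0.000989) and by 1.17 at 6 h (SE 0.20, adjusted p = 5.51e-06). At 24 h the difference was 0.46 (SE 0.21), with IL-4 samples at 58.0, 67.3 and 71.2 FPKM above controls at 41.0 to 51.0 FPKM. That difference did not pass (adjusted p = 0.064), and it passed with the replicate block (adjusted p = 0.00162).

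Irf1 was the 1 member whose level was also higher with IL-4 in both Stat6-/- replicates at every time. At 1 h replicate 1 went from 52.8 to 89.5 FPKM and replicate 2 from 68.8 to 192 FPKM. At 3 h the same replicates went from 42.6 to 56.2 FPKM and from 63.8 to 131 FPKM, and at 6 h from 46.8 to 56.7 FPKM and from 56.5 to 97.7 FPKM. The ratio was larger in replicate 2 at each of these times, and by 24 h it was between 1.06 and 1.23. The log2 difference at 1 h was 1.11 ± 0.28 (SE), with an adjusted p (limma) of 0.831, in a comparison in which 0% of loci passed. With the replicate block it was called (adjusted p = 0.000979), against 0.00897% of loci called higher with the block. Without Stat6-/- replicate 1 it was 1.47 (adjusted p = 0.00423), and without replicate 2 it was 0.75 (adjusted p = 1). These fits have 1 Stat6-/- sample per group and assume that it varies like the other groups.

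The WT and Stat6-/- responses of Irf1 were not shown to differ at 1 h, where the difference was -0.16 ± 0.34 (SE; adjusted p = 0.996), or at 3 h, where it was 0.12 ± 0.34 (adjusted p = 0.937). At 6 h the WT response was higher by 0.65 ± 0.34 (adjusted p = 0.219), which passed with the replicate block (adjusted p = 0.0124). An error of this size leaves room for a sizeable difference in either direction at the early times.

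Irf2 (chr8:46739745-46847458), which occupies the same elements as Irf1, had a smaller response. At 1 h the WT controls had 42.1, 39.9, 42.1 and 41.2 FPKM and the IL-4 samples 54.1, 53.3, 57.0 and 57.1 FPKM. IL-4 samples did not overlap controls at any of the 4 times. Irf2 rose by 0.41 on the log2 scale at 1 h (SE 0.12, adjusted p = 0.0143) and by 0.37 at 6 h (SE 0.12, adjusted p = 0.00996). The differences of 0.26 at 3 h and 0.27 at 24 h did not pass (adjusted p = 0.0917 and 0.0704), and with the replicate block they did (adjusted p = 0.000702 and 0.00131). In Stat6-/- BMDMs at 1 h controls had 36.3 and 53.4 FPKM and IL-4 samples 37.4 and 51.5 FPKM. The genotype difference at 1 h was 0.42 ± 0.20 (SE) with an adjusted p (limma) of 0.461, and with the replicate block it passed (adjusted p = 0.00885).

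**Figure D2:**
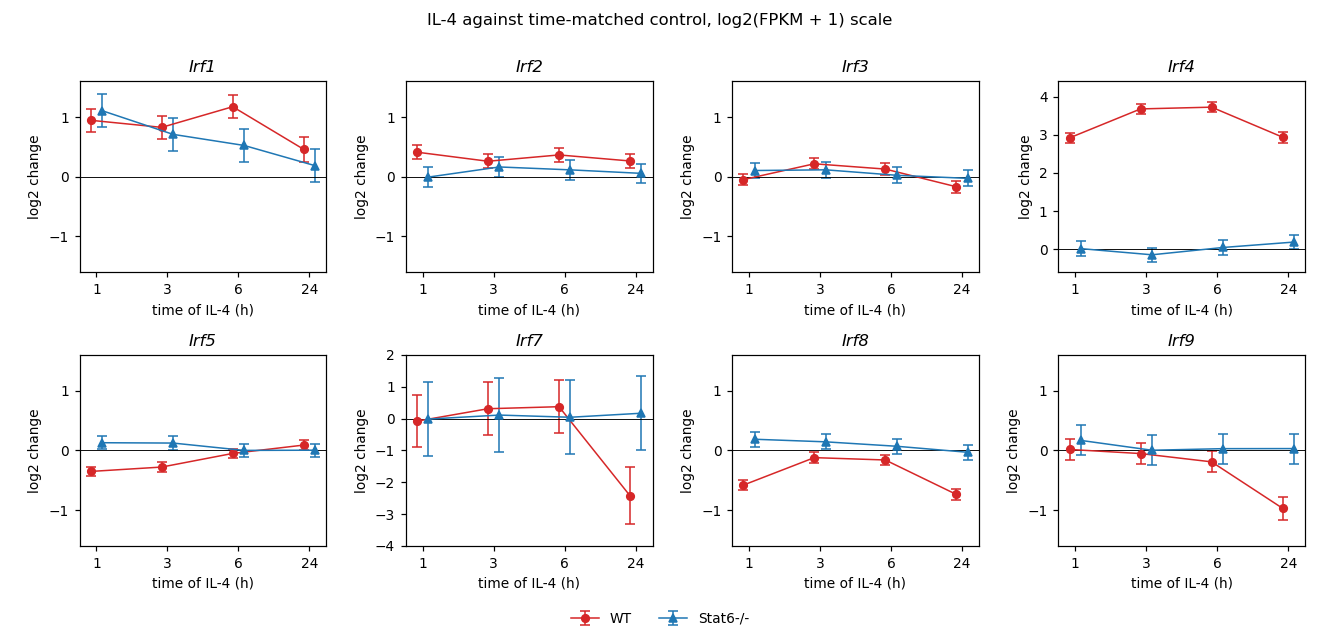
Points are log2 changes with IL-4 against time-matched controls on the log2(FPKM + 1) scale, bars are standard errors from limma, red circles are WT and blue triangles Stat6-/-; the Irf4 and Irf7 panels have wider axes. The WT curves leave 0 upwards for Irf4 (2.92 to 3.72), Irf1 and Irf2. They leave it downwards for Irf5 at 1 h and 3 h, Irf8 at 1 h and 24 h, and Irf7 and Irf9 at 24 h. The Stat6-/- curves stay near 0 except for Irf1, at 1.11 at 1 h.

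Irf5 (chr6:29526625-29537320), which acts after Toll-like receptor signalling in inflammatory macrophages, fell early and was back among the controls later. At 1 h the WT controls had 142, 136, 132 and 124 FPKM and the IL-4 samples 112, 104, 113 and 90.2 FPKM. At 3 h the controls had 161, 158, 154 and 145 FPKM and the IL-4 samples 141, 119, 125 and 125 FPKM. The groups did not overlap at 1 h or 3 h, and they overlapped at 6 h and 24 h. Irf5 fell by 0.35 on the log2 scale at 1 h (SE 0.08, adjusted p = 0.00147) and fell by 0.28 at 3 h (SE 0.08, adjusted p = 0.00574). The log2 difference was -0.05 at 6 h (adjusted p = 0.641) and 0.09 at 24 h (adjusted p = 0.39).

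In Stat6-/- BMDMs at 1 h Irf5 was at 131 and 166 FPKM in controls and 145 and 180 FPKM with IL-4. The genotype difference in the response was -0.48 ± 0.14 (SE) at 1 h, with an adjusted p (limma) of 0.039, and -0.40 ± 0.14 at 3 h, with an adjusted p of 0.051. The 1 h value no longer passed in 7 of 12 fits that each left out 1 sample, among them those without Stat6-/- IL-4 replicate 2 (-0.33, adjusted p = 0.51) and without Stat6-/- control replicate 1 (-0.32, adjusted p = 0.558). The 1 h value also did not pass by limma with only the groups compared (adjusted p = 0.349) or with no filter on low values (adjusted p = 0.0502). In the block fit both the 1 h and the 3 h value passed (adjusted p = 0.001 at 1 h and 0.00266 at 3 h). Irf5 exons share 411 of 2905 bases with the opposite-strand gene Tnpo3 in GENCODE M21, and the library kit does not mark strand, so reads of the 2 genes there cannot be told apart. Every other member shares at most 3.4% of its exon bases with another gene.

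Irf3 (chr7:44997648-45002848), which is regulated mainly at the protein level, held a narrow range. Its level stayed between 12.5 and 23.3 FPKM in all 35 WT samples, and no log2 difference with IL-4 exceeded 0.22 in WT. The 3 h difference of 0.22 ± 0.09 (SE), with controls at 14.8, 14.9, 16.03 and 17.2 FPKM and IL-4 samples at 19.1, 16.03, 18.9 and 19.8 FPKM, had an adjusted p (limma) of 0.0796. In the block fit it was 0.035, and without WT IL-4 replicate 2 it was 0.0305. The Stat6-/- differences ran from -0.03 to 0.12.

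Irf7 (chr7:141263183-141266424), the amplifier of type I interferon production and itself an interferon-stimulated gene, was unlike the other members in how far apart the replicates lay. WT controls at 0 h had 670, 543, 281 and 257 FPKM, and at 1 h they had 705, 706, 258 and 242 FPKM. Replicates 1 and 2 were above replicates 3 and 4 in all 9 WT groups, counting the replicates present. The same held for Irf9 in 9 of 9 groups, and for Irf1, Irf3 and Irf8 in 0 of 9. With this spread the differences with IL-4 of -0.08 at 1 h, 0.31 at 3 h and 0.37 at 6 h had a standard error of 0.83 each and did not pass.

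At 24 h the WT controls had 239, 160, 146 and 107 FPKM of Irf7, and the IL-4 samples, replicates 2 to 4, had 52.8, 22.7 and 18.7 FPKM. Every IL-4 sample was below every control, and within replicate numbers the IL-4 level was between 0.155 and 0.331 times the control. Irf7 fell by 2.43 on the log2 scale (SE 0.89, adjusted p = 0.0209), to a ratio of mean FPKM of 0.193. The call was lost without WT IL-4 replicate 3 (adjusted p = 0.065), without WT IL-4 replicate 4 (adjusted p = 0.0807) or without WT control replicate 1 (adjusted p = 0.0527), with log2 differences between -2.14 and -2.27. The block fit gave a log2 difference of -2.23 (SE 0.18, adjusted p = 4.28e-13).

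The Stat6-/- replicates were further apart still. At 0 h replicate 1 had 245 FPKM of Irf7 and replicate 2 had 1217 FPKM, and at 24 h the controls had 51.2 and 383 FPKM. Replicate 2 was above replicate 1 in 9 of 9 groups, by 4.97-fold to 9.18-fold. Irf9 was 1.40-fold to 1.84-fold higher and Irf1 1.16-fold to 2.33-fold higher in replicate 2, also in 9 of 9 groups. Irf3 was higher in replicate 2 in 3 of 9 groups and Irf4 in 2 of 9.

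With IL-4 for 24 h the Stat6-/- samples had 59.1 and 419 FPKM of Irf7, each slightly above its own control, at 1.15 and 1.10 times. The WT response was lower than the Stat6-/- response by -2.59 ± 1.47 (SE) on the log2 scale, which did not pass (adjusted p = 0.193, limma). With the replicate block the genotype difference was -2.40 ± 0.29 and passed (adjusted p = 3.06e-08).

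**Figure D3:**
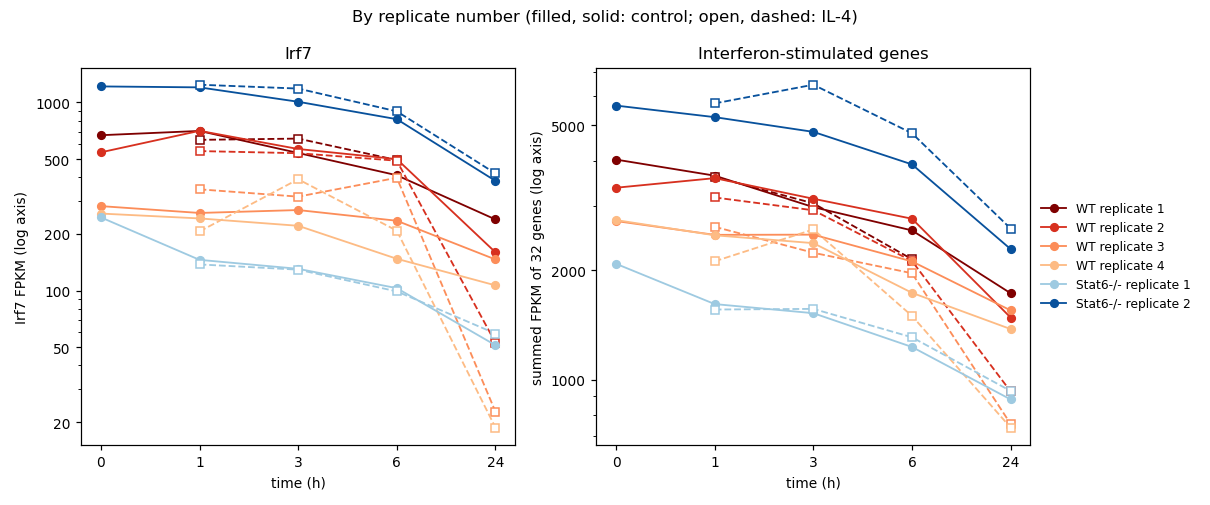
Lines join samples with the same genotype and replicate number over time in hours, for Irf7 FPKM (left) and the summed FPKM of 32 interferon-stimulated genes (right), both on log axes; filled symbols and solid lines are controls, open symbols and dashed lines IL-4. Stat6-/- replicate 2 lies highest and, among controls, Stat6-/- replicate 1 lowest, and at 24 h only the WT lines drop with IL-4, to 18.7 to 52.8 FPKM of Irf7.

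Irf9 (chr14:55603985-55610030) was also lower with IL-4 at 24 h, with a smaller change than Irf7. At 24 h the WT controls had 44.1, 42.5, 40.3 and 37.2 FPKM and the IL-4 samples, replicates 2 to 4, had 24.7, 19.9 and 17.2 FPKM. The groups did not overlap, and Irf9 fell by 0.97 on the log2 scale (SE 0.19, adjusted p = 5.83e-05). At 1 h and 3 h the log2 differences were 0.02 and -0.05. At 6 h the difference was -0.19 (adjusted p = 0.411), with the IL-4 level between 0.801 and 0.905 times the control in all 4 replicate numbers, and with the replicate block it passed (adjusted p = 0.00175).

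In Stat6-/- BMDMs at 24 h Irf9 was at 29.2 and 53.9 FPKM in controls and at 30.7 and 53.5 FPKM with IL-4. The WT response was lower by -1.0004 ± 0.32 (SE; adjusted p = 0.0165, limma). This value lies at the 2-fold limit, and it fell to -0.61 without Stat6-/- IL-4 replicate 2 (adjusted p = 0.258) and to -0.57 without Stat6-/- control replicate 1 (adjusted p = 0.299); fitted on the compared groups alone it did not pass (adjusted p = 0.103). With the replicate block, which compares within replicate numbers, it was -0.97 ± 0.09 (adjusted p = 1.13e-10). Irf9 exons share 123 of 5386 bases with Rnf31 on the same strand.

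Over the 8 members the genotype difference in the response passed for 3, 1, 1 and 3 of them in order of time, against 3.36%, 11.2%, 16.5% and 27% of the loci tested. The called members were Irf4 at every time and Irf9 at 24 h, against 1.25%, 3.48%, 4.41% and 6.85% of loci called. In Stat6-/- BMDMs 0 of 8 members passed at any time by limma without the block, as did 0 of 11146 loci.

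The genotypes were also compared without IL-4. Averaged over the 5 control times, 1 of 8 members passed, Irf5, which was higher in Stat6-/- by 0.12 ± 0.04 (SE) on the log2 scale (adjusted p = 0.0433), against 21.4% of loci. This call was lost in 16 of 30 fits that each left out 1 control sample, and the difference was 0.03 without Stat6-/- replicate 2. If a replicate number marks 1 animal, its 5 control times are not independent. The adjusted p of the average over control times then does not measure the spread between animals. With 1 Stat6-/- sample left per group, 6 of 8 passed without replicate 1, against 47.4% of loci, and 3 of 8 without replicate 2, against 29.5%. For Irf7 the average difference was 0.05 ± 0.45 and for Irf9 -0.03 ± 0.10, with Stat6-/- replicate 1 low and replicate 2 high. The direction of both depended on which replicate was kept. Irf7 was at 1.47 without replicate 1 and at -1.36 without replicate 2. Irf9 was at 0.29 and -0.36 in the same fits. At 0 h alone 0 of 8 members passed, against 2.18% of loci.

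Time in culture without IL-4 also went with lower Irf7. From 0 h to 24 h the WT controls went from 670, 543, 281 and 257 FPKM to 239, 160, 146 and 107 FPKM, and the groups did not overlap. The log2 difference of -1.36 ± 0.83 (SE) did not pass (adjusted p = 0.265, limma), and 0 of 8 members passed, against 17.2% of loci. In the fit with the block 4 of 8 passed, against 37.1% of loci. These were Irf7 (adjusted p = 3.89e-08), Irf9 at -0.22 (adjusted p = 0.000895), Irf5 at 0.18 (adjusted p = 0.0149) and Irf8 at 0.16 (adjusted p = 0.0395). The fall of Irf7 with IL-4 at 24 h is therefore measured against controls that were already lower than at 0 h.

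Genes up and down the pathway were counted from 5 lists. Of 9 interferons and interferon receptors, 5 were tested. The interferon genes Ifnb1, Ifna2, Ifna4 and Ifng were not, since none exceeded 0.265 FPKM. At 24 h 4 of the 5 fell and 0 rose, against 31.6% and 23.4% of all loci, and with the replicate block 5 fell and 0 rose, against 38.9% and 27.3%. Ifngr1, a chain of the interferon-gamma receptor, fell by 1.15 on the log2 scale (adjusted p = 2.11e-10) after a rise of 0.49 at 1 h (adjusted p = 0.00154), and Ifnar2, a chain of the type I interferon receptor, fell by 0.69 (adjusted p = 4.28e-06).

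Among 10 genes of the JAK-STAT arm of interferon signalling, 3 rose and 2 fell at 24 h, against 23.4% and 31.6% of all loci; with the block 3 rose and 6 fell, against 27.3% and 38.9%. The early leader was Socs1, a feedback inhibitor of Janus kinases, which rose by 5.90 on the log2 scale at 1 h (adjusted p = 3.04e-20). Jak2 rose by 1.76 at 6 h (adjusted p = 4.33e-18).

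Among 17 genes of Toll-like receptor and nucleic acid sensing upstream of IRF3, IRF5 and IRF7, Tlr4 among them, 6 fell and 1 rose at 24 h. The shares of all loci were 31.6% and 23.4%. With the block 11 fell and 1 rose, against 38.9% and 27.3%. Of these genes 4 were called lower, against 4.58% of loci, or 3 with the block, against 4.86%. Tlr9, the receptor for unmethylated DNA, fell by 2.30 on the log2 scale (adjusted p = 7.36e-05). Ikbke, a kinase of IRF3 and IRF7, fell by 1.71 (adjusted p = 6.02e-12), and Ddx58, the RNA sensor RIG-I, fell by 1.38 (adjusted p = 0.00268).

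Of 12 partners and corepressors of IRFs, 11 were tested, and 3 rose and 2 fell at 6 h, against 22% and 19.2% of all loci. At 24 h 1 rose and 2 fell, against 23.4% and 31.6% of all loci. With the block 2 rose and 5 fell, against 27.3% and 38.9%. Batf3 and Batf, bZIP factors that bind composite elements with IRF4 and IRF8, rose by 3.36 (adjusted p = 1.24e-18) and 1.30 (adjusted p = 2.25e-09) on the log2 scale at 6 h. Batf3 went from a mean of 6.10 FPKM to 71.4 FPKM. Ikzf1, another DNA-binding partner, rose by 1.17 at 1 h (adjusted p = 4.2e-08) and fell by 0.64 at 24 h (adjusted p = 0.000645). For Batf the 24 h difference was 0.02 (adjusted p = 0.91).

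Of 32 interferon-stimulated genes, targets of ISGF3 and of several IRFs, 19 were called lower and 0 higher in WT at 24 h, against 4.58% of all loci called lower, or 21 with the replicate block, against 4.86%. Their median log2 difference was -1.59, against -0.07 over all loci. Earlier, 0 of them were called lower at 1 h (0.395% of loci), 1 at 3 h (1.27%) and 5 at 6 h (2.36%), or 9 at 6 h with the replicate block (2.52%). Ifit3 fell by 4.16 (adjusted p = 6.23e-06), Cxcl10 fell by 3.18 (adjusted p = 5.18e-06) and Ifit2 fell by 3.13 (adjusted p = 0.00206). In Stat6-/- BMDMs 0 of the 32 passed at 24 h, as did 0 of 11146 loci, so this count is not particular to these genes. Their median log2 difference there was 0.16. The genotype difference was called lower for 6 of 32, against 3.51% of loci, or for 25 with the replicate block, against 5.03%.

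**Figure D4:**
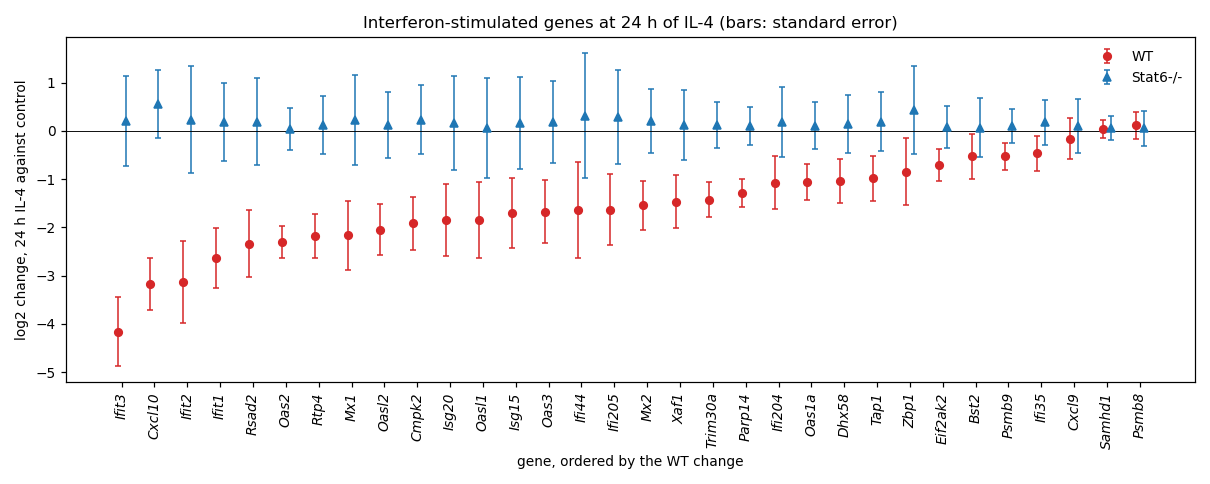
Points are log2 changes at 24 h of IL-4 against the 24 h controls for 32 interferon-stimulated genes, ordered by the WT change, with standard errors from limma as bars; red circles are WT and blue triangles Stat6-/-. The WT points run from -4.16 for Ifit3 to slightly above 0, and the Stat6-/- points lie around a median of 0.16.

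The sum over these genes was lower with IL-4 at 24 h in WT, as Irf7 was, but the 2 did not move together at every time. At 6 h the sum was 2571, 2768, 2113 and 1732 FPKM in the WT controls and 2142, 2118, 1960 and 1497 FPKM with IL-4, lower in 4 of 4 replicate numbers, while Irf7 was higher in 3 of 4. At 24 h it was 1727, 1481, 1550 and 1377 FPKM in the WT controls and 928, 756 and 738 FPKM in the WT IL-4 samples, replicates 2 to 4. In Stat6-/- it was 882 and 2284 FPKM in controls and 931 and 2601 FPKM with IL-4. The sum was lower with IL-4 in 3 of 3 WT replicate numbers and slightly higher in both Stat6-/- replicates.

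The genes whose group means followed each member most closely were ranked by Pearson correlation over the 18 group means, which share libraries and time points, so the values are descriptions. For Irf4 they included Plekha3 (0.993) and Hbegf (0.987). For Irf7 they were Ly6a (0.991), Oas1g (0.987) and Oas1a (0.986), and for Irf9 Ppt1 (0.971), Rtp4 (0.971) and Oas1c (0.966). Pim1 led for Irf1 (0.882), Rhbdf2 for Irf2 (0.904), Zbtb48 for Irf3 (0.909), Midn for Irf5 (0.942) and Tnfaip8l2 for Irf8 (0.923).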

How the data were processed

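RNA-seq libraries were made by the authors from poly-A RNA with the TruSeq RNA kit. Per the labels, reads were aligned with TopHat2 2.0.7 to mm10 and quantified with Cufflinks 2.0.2, and the deposited values are FPKM for 23847 loci per sample; the annotation used is not given in the sources used here. The depth is not stated, and relative depth was read from the steps of 12701 low loci (100% of 1378 sample pairs within 2%).

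Values were analysed as log2(FPKM + 1) with limma 3.58.1 (R 4.3.3), using means of 18 groups, a trend in the prior variance and 35 residual degrees of freedom, over loci with at least 1 FPKM in 1 sample. Values under 1e-05 were set to 0. P-values were two-sided with Benjamini-Hochberg adjustment over 11146 loci per comparison. The interaction was the WT change minus the Stat6-/- change. Named genes were all 8 members, the 3 genes most like each member, and up to 3 leading passed genes of each list. Some genes that this rule names are not reported here. The members and lists were chosen with earlier results of these data known.

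The replicate block (31 residual degrees of freedom) was an alternative. Deviations from group means of same-numbered control and IL-4 samples correlated above 0.1 in 13 of 15 WT pairs (0.0265 to 0.561). In Stat6-/- the correlations ran from 0.791 to 0.900. With 2 samples per group the deviations mirror each other, so both Stat6-/- replicates give the same single value at each time. The pairing rests on these values and on the study's account of individual animals. Samples with different numbers were not correlated, so these values have no baseline and cannot show that numbers mark animals. If numbers do not mark animals, p-values measure only the spread between samples. If they do, samples of 1 number at different times are not independent in the fit without the block. No block could be fitted to the comparison of genotypes in controls. Other alternatives were a pseudocount of 0.1, no filter, quantile normalization, only the groups compared, leaving out samples, and analysis of variance with Tukey adjustment.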

Additional observations from a re-analysis of the deposited data

Results flagged for a closer look

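In 64 sets of 4 WT samples, 2 held a sample far from the other 3, where chance gives about 1 set in 20. Irf1 in WT 3 h control replicate 4 was at 54.6 FPKM against 48.8 to 49.1 FPKM in the others. Irf9 in WT 6 h IL-4 replicate 4 was at 31.5 FPKM against 40.3 to 41.5 FPKM.

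The log2 response to IL-4 differed between the genotypes, by limma's test of the WT minus Stat6-/- difference, for Irf4 at 1 h (2.90, adjusted p = 4.89e-12), 3 h (3.82, adjusted p = 7.33e-16), 6 h (3.67, adjusted p = 1.32e-15) and 24 h (2.75, adjusted p = 1.47e-11). It also differed for Irf5 at 1 h (-0.48, adjusted p = 0.039), for Irf8 at 1 h (-0.77, adjusted p = 0.000786) and 24 h (-0.71, adjusted p = 0.000695), and for Irf9 at 24 h (-1.0004, adjusted p = 0.0165). Irf4 and Irf8 passed in every fit that left out 1 sample, with adjusted p of at most 2.42e-09 for Irf4 and 0.0495 for Irf8, while Irf5 and Irf9 did not.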

How the results depend on the processing

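Single-gene results for the members were followed if they passed with or without the block, or if stated above though they passed in neither fit. The set was thus chosen partly with the block. Of these 53 results, 53 kept their direction and side of the threshold with a pseudocount of 0.1, and 51 with no filter on low values. With quantile normalization 47 did so, and with only the groups compared 45. With the replicate block 35 of 50 did so and 15 passed in addition; it moved members passing in WT from 3 to 5 at 3 h and at 6 h, passing and called members in Stat6-/- at 1 h from 0 to 1, passing genotype differences from 1 to 2 at 3 h and 6 h, and WT controls over time from 0 to 4 passing and 1 called. The block's other changes to members' calls were given beside each result, and it changed no other call of a member; it also changed calls of genes in the 5 lists, and the 24 h counts of the lists were given for both fits. With only the groups compared 5 members passed in WT at 3 h, 1 genotype difference was called at 24 h (2 before), 2 members passed between genotypes in controls, and 1 passed and was called over time. With quantile normalization 2 genotype differences passed at 3 h, 1 was called at 24 h, and 1 member passed over time. With Tukey adjustment 1 member was called in WT at 24 h, since Irf7 was lost (adjusted p = 0.45), as were the passes of Irf2 at 1 h (0.0542) and 6 h (0.134) and of Irf5 at 3 h (0.0808), and 1 passed and was called in Stat6-/- at 1 h. With no filter 0 members passed between genotypes in controls. Shares of all loci are not given for only the groups compared, quantile normalization, Tukey adjustment, no filter or single samples left out. They are also not given for the genotype differences at 3 h and 6 h with the block. Whether these moved counts are particular to the members was not tested.

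Directions reversed for 6 small differences that did not pass as reported. With quantile normalization Irf7 was at 0.11 in WT at 1 h and at -0.0015 between genotypes in controls. Leaving out single samples gave ranges of -0.35 to 0.23 and -0.25 to 0.36 for these, -0.0397 to 0.0601 for Irf9 in WT at 1 h, -0.119 to 0.0527 for Irf9 between genotypes in controls, and -0.71 to 0.39 at 1 h and -0.49 to 0.72 at 3 h for the genotype difference in the response of Irf1. None of the reversed values from quantile normalization or from leaving out single samples passed.

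Leaving Stat6-/- replicate 1 or 2 out of every group was chosen after seeing the data; it leaves 1 Stat6-/- sample per group, assumed to vary like the other groups. Without replicate 1, 1 member passed and was called in Stat6-/- at 1 h, against 0.0269% of loci passing, 2 genotype differences passed at 3 h (11.2% of loci), 1 was called at 24 h, and 6 members passed and 1 was called between genotypes in controls (47.4% of loci passing), with 2 passing at 0 h (14.4%). Without replicate 2, 2 genotype differences passed at 6 h (17% of loci), and 3 members passed and 1 was called between genotypes in controls (29.5%). Reversed values between genotypes in controls were 0.29 for Irf9 without replicate 1 and -1.36 for Irf7 without replicate 2. In the opposite fits Irf9 was at -0.36 and Irf7 at 1.47, so each Stat6-/- replicate alone gave the other sign. The statement above on reversed values that did not pass does not cover these fits. For the genotype difference of Irf1 they were -0.20 at 3 h without replicate 1 and 0.20 at 1 h without replicate 2. Leaving out single samples gave 1 to 2 called genotype differences at 24 h, 1 to 3 passing at 3 h, 0 to 1 passing or called in Stat6-/- at 1 h, 1 to 3 called in WT at 24 h, and 0 to 2 passing between genotypes in controls. The causes were not tested. With 2 Stat6-/- samples per group, whose Irf7 levels differed up to 9.18-fold, the 24 h genotype difference of Irf7 did not pass without the block.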
